A study of Mus musculus with 6 samples.

Results

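The genes described here drive or build the mesenchyme of the cardiac cushions, the swellings inside the outflow tract from which its septum and valves are made. They are the transcription factors Snai1, Snai2, Twist1, Prrx1, Sox9 and Scx, the hyaluronan synthase Has2, the matrix proteins Vcan (versican) and Postn (periostin), and Papss2, an enzyme that makes the sulfate donor for matrix sugars. Every probe set whose platform annotation names 1 of these 10 genes and no other was taken, which gave 30 of the 45101 probe sets on the array and 10 of the 18193 genes that its annotation names singly. By their brightest probe sets, 8 of the 10 genes had a lower signal in the superior than in the inferior outflow tract, and the median log2 difference of the 10 was -0.21. None of these differences passed the test after adjustment. Papss2, Sox9, Snai1 and Has2 were lower in superior within all 3 pools, by log2 differences of -0.64, -0.33, -0.52 and -0.21, whereas the matrix proteins Vcan and Postn differed by less than 0.1 by the same measure. That contrast depended on the probe set and the scaling. The 3 dimmest tested Vcan probe sets gave -0.23 to -0.51. Under quantile normalization the brightest probe sets of Vcan and Postn gave -0.12 and -0.11.

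The arrays come from hearts of CD1 mouse embryos at embryonic day 10.5. The outflow tract, the vessel-like outlet of the ventricles, was cut into superior and inferior pieces. RNA from pools of such pieces was measured on Affymetrix Mouse Genome 430 2.0 arrays, with 3 superior and 3 inferior pools numbered 1, 6 and 7 in both regions, with no mutation or treatment named for either region. Each pool combined pieces of 6 littermates per the labels, where the design text gives another number, and it is not stated whether each pool was a litter of its own, so p-values measure the spread between these pools only.

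Cushion mesenchyme arises when endocardial cells lose their contacts and migrate into the gel between endocardium and muscle, a change called epithelial to mesenchymal transition (EMT). In the outflow tract the cushions also receive neural crest cells from the pharyngeal arches. Snail and Twist factors drive EMT, hyaluronan and versican make up much of the gel, and Sox9 and Scx act in valve cells as they do in cartilage and tendon.

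Values are signals made by the authors with MAS5, an algorithm that gives 1 signal per probe set and array relative to the rest of that array. The highest signal among 27 control probe sets for Bacillus RNA was 8.0, and a signal above it is called above background. Of the 30 member probe sets, 22 lay above the filter on dim probe sets, a mean signal of about 15.1 over all 6 arrays, and every one of the 10 genes kept at least 1. All 22 were above background in all 6 arrays. Among the 8 that were not tested, 4 never exceeded background, namely 2 of Vcan and 1 each of Prrx1 and Papss2, and the other 4 did so in 2 to 4 arrays. Differences are superior minus inferior in log2(signal + 3.2), taken within each pool number, and standard errors (SE) and p-values are from limma with the pool number as a block, adjusted over all 22518 tested probe sets. In bulk tissue, fewer cells of a type and less RNA per cell cannot be told apart.

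Of the 22 tested member probe sets, 0 were called at an adjusted p threshold of 0.05 by limma, where 0.160% of all tested probe sets were, and their adjusted p-values ran from 0.102 to 0.929. At an unadjusted threshold of 0.05 limma passed 8 of the 22, all lower in superior, beside 11.0% of all tested probe sets in either direction and 6.00% in that direction. Without the pool number in the fit, 0 were called and 2 passed unadjusted, beside 3.52% of all. The mean difference was below 0 for 20 of the 22, beside 55.1% of all tested probe sets. The superior signal was lower within all 3 pools for 9 of the 22, beside 19.0% of all tested probe sets, and higher within all 3 for 0, beside 15.0%. All 3 superior signals lay below all 3 inferior signals for 3 of the 22, beside 4.56%. The 22 share 10 genes and are not independent, and taking the brightest probe set per gene, 4 of 10 genes were lower in all 3 pools, beside 17.1% of 11195 genes. The median of these 10 differences was -0.31, -0.16 and -0.12 in pools 1, 6 and 7.

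Papss2 makes PAPS, the donor of the sulfate that is added to the sugar chains of proteoglycans, among them the chondroitin chains of versican. Its brightest probe set, 1434510_at, had signals of 385.3, 701.6 and 357.4 in superior pools 1, 6 and 7, against 693.1, 1177.5 and 453.1 in inferior pools 1, 6 and 7. The superior signal was the lower one within every pool, although the values of the regions overlapped because pool 6 was high in both. The log2 difference was -0.64 ± 0.11 (SE, limma adjusted p = 0.102), that is 1.56-fold lower in superior, with -0.84, -0.74 and -0.34 in pools 1, 6 and 7. It passed only when pool 7 was left out, at -0.79 (limma adjusted p = 0.00412), a fit with a single residual degree of freedom. That fit called 113 of 22518 probe sets, against 36 with all pools. The dimmer probe set 1421987_at was also lower in every pool, averaging 38.5 ± 22.5 in superior against 62.9 ± 33.1 in inferior pools (SD, n = 3 each) and a log2 difference of -0.67 ± 0.15 (limma adjusted p = 0.208). A further one, 1421989_s_at, was lower in pools 1 and 7 and not in pool 6, with -0.38 ± 0.17. It read 12.9 in superior pool 1 and 23.5 in inferior pool 1, and between 90.3 and 164.8 in the other arrays, so pool 1 was dim in both regions.

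Sox9 is a transcription factor that cushion mesenchyme needs to expand and that drives cartilage formation. Probe set 1451538_at had signals of 335.2, 412.3 and 291.6 in superior pools 1, 6 and 7, against 418.4, 573.3 and 335.3 in inferior pools 1, 6 and 7. Superior was lower in each pool while the regions overlapped across pools. The log2 difference was -0.33 ± 0.10 (limma adjusted p = 0.318). The second probe set, 1424950_at, gave nearly the same difference of -0.36 ± 0.11, averaging 192.6 ± 102.4 in superior against 240.1 ± 108.6 in inferior pools (SD, n = 3 each). Its pool 1 signals, 96.5 in superior and 141.0 in inferior, were again the lowest. The 2 probe sets thus agreed in direction in all 3 pools. The remaining Sox9 probe set was too dim to test.

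Snai1 and Snai2 encode the zinc finger repressors Snail and Slug, which silence cadherin genes during EMT. Snai1 had signals of 33.9, 40.4 and 31.6 in superior pools 1, 6 and 7, against 53.1, 44.2 and 59.2 in inferior pools 1, 6 and 7. All superior values lay below all inferior values, by little in pool 6. The log2 difference was -0.52 ± 0.18 (limma adjusted p = 0.380), with -0.60, -0.12 and -0.84 in pools 1, 6 and 7.

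The 2 probe sets of Snai2 differed from each other. The dimmer, 1418673_at, had signals of 119.1, 77.1 and 47.0 in superior pools 1, 6 and 7, against 112.4, 177.2 and 163.0 in inferior pools 1, 6 and 7. Superior was far lower in pools 6 and 7 and slightly higher in pool 1. Its log2 difference was -0.94 ± 0.34 (limma adjusted p = 0.433), and without pool 1 it was -1.45 and passed (limma adjusted p = 0.0263). The fit without pool 1 called 9 of 22518 probe sets and had a single residual degree of freedom. The brighter, 1447643_x_at, had signals of 596.7, 757.6 and 498.7 in superior pools 1, 6 and 7, against 717.2, 726.7 and 554.9 in inferior pools 1, 6 and 7, a difference of only -0.12 ± 0.09. The suffix x marks a probe set some of whose probes can also match other transcripts, and which of the 2 follows Snai2 was not tested.

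Twist1 and Prrx1 encode a helix-loop-helix and a homeobox factor of early mesenchyme, Twist1 also acting in neural crest. Twist1 had signals of 526.9, 540.8 and 432.0 in superior pools 1, 6 and 7, against 726.1, 663.1 and 414.6 in inferior pools 1, 6 and 7. It was lower in superior pools 1 and 6 and level in pool 7, with a log2 difference of -0.23 ± 0.11 (limma adjusted p = 0.489). Prrx1 showed the same order by its brightest probe set, 1425528_at, with 211.4, 207.1 and 161.3 in superior pools 1, 6 and 7, against 261.8, 257.6 and 160.9 in inferior pools 1, 6 and 7 (log2 -0.20 ± 0.11). All 4 tested Prrx1 probe sets had negative mean differences, from -0.33 to -0.16. One of them, 1432129_a_at, was lower in every pool without overlap, at 31.2 to 35.2 in superior against 35.3 to 49.0 in inferior pools, a gap of 0.1 between the nearest values.

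Scx encodes scleraxis, a helix-loop-helix factor of tendons and of valve cells. It was dim, with signals of 16.3, 25.4 and 16.7 in superior pools 1, 6 and 7, against 13.5, 29.6 and 23.7 in inferior pools 1, 6 and 7. Superior was higher in pool 1 and lower in the other pools, and the difference of -0.14 ± 0.21 was smaller than its error. The other Scx probe set, 1456291_x_at, was too dim to test and ran differently. It read 11.5, 9.6 and 12.3 in superior pools 1, 6 and 7, against 5.3, 12.7 and 6.4 in inferior pools 1, 6 and 7.

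Has2 makes the hyaluronan of the cardiac gel, and mouse embryos without it form no cushions. Its brighter probe set, 1449169_at, had signals of 620.1, 726.3 and 571.7 in superior pools 1, 6 and 7, against 866.0, 758.0 and 605.8 in inferior pools 1, 6 and 7. Superior was lower in each pool, mostly so in pool 1, where the log2 difference was -0.48, against -0.06 and -0.08 in pools 6 and 7. Over the pools it was -0.21 ± 0.11 (limma adjusted p = 0.506). The dimmer probe set, 1418678_at, had superior values of 332.4 to 498.4 against inferior values of 505.0 to 579.0, which did not overlap, and a log2 difference of -0.37 ± 0.11 (limma adjusted p = 0.317). Both Has2 probe sets were lower in superior in all 3 pools.

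Vcan encodes versican, the large chondroitin sulfate proteoglycan that binds hyaluronan. By its brightest probe set, 1427256_at, signals were 2955.1, 3648.0 and 2635.6 in superior pools 1, 6 and 7, against 3150.0, 3210.5 and 2491.7 in inferior pools 1, 6 and 7, with superior lower in pool 1 and higher in the others. The log2 difference was 0.058 ± 0.093 (limma adjusted p = 0.860), and its sign turned under quantile and cyclic loess normalization. The next probe set, 1421694_a_at, gave -0.033 ± 0.091. The other 3 tested Vcan probe sets were dimmer and had larger negative differences of -0.23 ± 0.11, -0.34 ± 0.22 and -0.51 ± 0.17, the last of them lower in every pool. Versican is made in several splice forms, but the annotation used here does not say which form each probe set reads.

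Postn encodes periostin, a matrix protein of cushion and valve mesenchyme that aids collagen assembly. Its 1 probe set had signals of 2789.3, 4062.7 and 2324.2 in superior pools 1, 6 and 7, against 3099.1, 3473.2 and 2096.2 in inferior pools 1, 6 and 7. Superior was lower in pool 1 and higher in pools 6 and 7. The log2 difference was 0.074 ± 0.10 (limma adjusted p = 0.830), with a sign that also turned under quantile and cyclic loess normalization. The pools differed from each other more than the regions did.

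**Figure D1:**
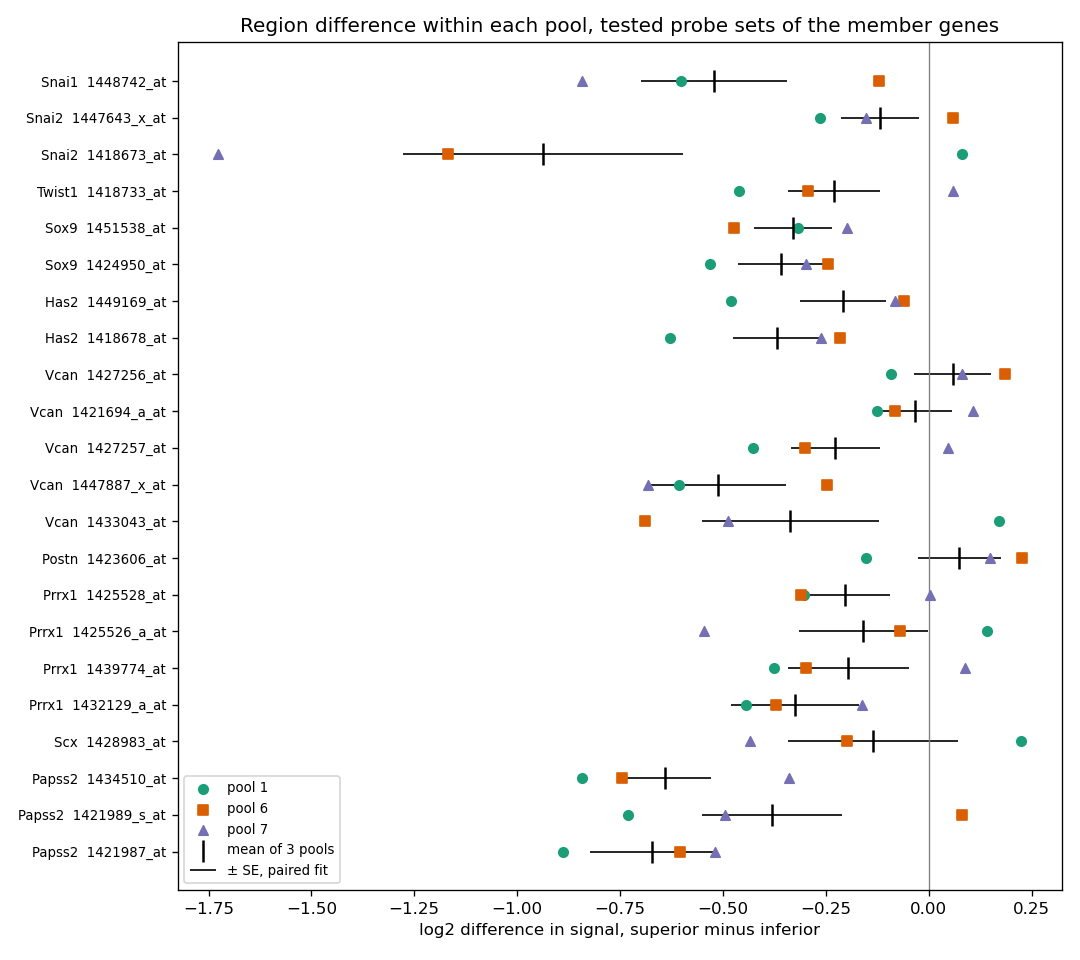
Log2 difference in signal, superior minus inferior, for the 22 tested member probe sets: coloured points are pools 1, 6 and 7, black ticks the mean and black lines ± SE of the paired limma fit. In all, 20 of 22 means lie left of 0, and 9 probe sets have all 3 points there. The 2 Snai2 probe sets and the 5 of Vcan spread widely.

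The arrays of pool 1 differed in RNA measures from the others. The ratio of the 5′ to the 3′ control signal of Gapdh was 0.77 in superior and 0.45 in inferior pool 1, against 1.11 to 1.20 in the other 4 arrays. For actin this ratio was nearly equal in the regions of pool 1, 0.45 in superior and 0.44 in inferior. It was 0.53 to 0.69 in the other 4 arrays. The signal of an 18S rRNA control was 103.8 in superior and 95.6 in inferior pool 1, against 475.3 to 785.6 elsewhere. The superior array of pool 6 had hybridisation control signals 1.64 times those of the median array. Of the tested member probe sets, 20 of 23 were lower in superior without pool 1, 22 of 22 without pool 6 and 18 of 22 without pool 7. The part of RNA quality in the differences was not tested.

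For 4 of the 10 genes the RefSeq promoter table (assembly GRCm38.p6, which holds 6 of them) gives the full 200 bases before the gene's outermost annotated start. They are shown because several of the members bind short known motifs, and every member gene with such a window is included. Snai1 and Papss2 were lower in all 3 superior pools. Twist1 and Postn were not, though the mean difference of Twist1 was negative. Whether a motif goes with a difference was not tested over these 4 genes. Capitals mark the E-box CANNTG, the motif of Snail, Twist and scleraxis factors, and the Sox motif AACAAT, searched on both strands. The windows are chr2:167537995-167538194 for Snai1, chr19:32595469-32595668 for Papss2, chr12:33957471-33957670 for Twist1 and chr3:54359067-54359266 for Postn, all on the plus strand and written 5′ to 3′.
Snai1: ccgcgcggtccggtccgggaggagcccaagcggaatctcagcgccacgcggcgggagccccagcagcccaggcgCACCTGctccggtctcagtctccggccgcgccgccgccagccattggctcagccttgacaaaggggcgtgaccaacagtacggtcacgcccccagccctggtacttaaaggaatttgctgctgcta
Papss2: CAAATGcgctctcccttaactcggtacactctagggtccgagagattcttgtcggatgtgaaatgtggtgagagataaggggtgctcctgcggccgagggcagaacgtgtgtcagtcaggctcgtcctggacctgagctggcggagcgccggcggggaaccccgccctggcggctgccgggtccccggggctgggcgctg
Twist1: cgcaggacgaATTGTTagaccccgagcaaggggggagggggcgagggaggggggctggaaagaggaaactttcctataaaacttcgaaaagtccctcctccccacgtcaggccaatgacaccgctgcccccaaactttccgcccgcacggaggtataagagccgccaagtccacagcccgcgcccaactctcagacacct
Postn: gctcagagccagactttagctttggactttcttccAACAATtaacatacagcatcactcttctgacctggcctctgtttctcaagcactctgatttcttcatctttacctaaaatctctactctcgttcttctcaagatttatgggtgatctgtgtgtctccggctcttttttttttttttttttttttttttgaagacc
The Snai1 window held 1 E-box, of the form CAGGTG read on the minus strand, to which Snail factors bind. The Papss2 window held 1 E-box at its outer end, and Twist1 and Postn held none. Twist1 and Postn each held 1 Sox motif, and Snai1 and Papss2 none. Of 32851 promoter windows of the same length, 58.2% held an E-box, 13.9% the form CAGGTG, which is itself an E-box, and 7.46% the Sox motif. A match is a description of the letters and not a binding site.

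Related genes were described as 8 lists, using the brightest tested probe set of each gene. The members' median log2 difference of -0.21 lay beside -0.27 for genes of the cartilage and tendon programme, -0.13 for cushion inducing signals, and between -0.07 and 0.04 for the other 6 lists. Over all 11195 genes the median was -0.0028, with 50.8% of genes lower and 17.1% lower in all 3 pools. Of these genes 5.30% passed unadjusted as lower and 6.07% as higher. Called genes numbered 1 over the 8 lists, Dcn, where limma called 0.160% of all tested probe sets.

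In the cartilage and tendon programme, 17 genes that share targets or tissues with Sox9 and Scx, 10 were tested and 9 of them had a lower superior signal, with 0 called by limma and 2 passing unadjusted, both lower. Col9a3, a chain of the cartilage collagen IX, had signals of 70.3, 145.7 and 59.0 in superior pools 1, 6 and 7, against 157.9, 187.1 and 98.3 in inferior pools 1, 6 and 7. Superior was lower in every pool, with a log2 difference of -0.73 ± 0.15 (limma adjusted p = 0.165). Col9a3 passed without pool 6, at -0.92 (limma adjusted p = 0.0271), a fit that called 231 of 22518 probe sets. The collagen IX chain Col9a2 was dim, at -0.44 ± 0.24. Col9a1, the remaining tested chain of that collagen, had level signals of 1332 ± 133.5 in superior and 1340 ± 218.3 in inferior pools (SD, n = 3 each) and a difference of -0.0003 ± 0.088. Among the untested members were Comp, Tnmd and Mkx, which were too dim.

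Of 25 genes that induce cushions or restrain their induction, 24 were tested and 18 were lower in superior, 12 of them in all 3 pools (17.1% of all genes were), with 0 called by limma. At an unadjusted threshold 6 passed as lower, beside 5.30% of all genes, and 1 as higher, beside 6.07%. Erbb3, a neuregulin co-receptor needed for cushion mesenchyme, had signals of 383.9, 506.0 and 309.9 in superior pools 1, 6 and 7, against 626.1, 702.8 and 412.8 in inferior pools 1, 6 and 7. It was lower in each, by -0.53 ± 0.10 (limma adjusted p = 0.111), and passed without pool 6, at -0.56 (limma adjusted p = 0.0437), and without pool 7, at -0.59 (limma adjusted p = 0.0388). The growth factor Tgfb3 was lower by a similar amount, -0.54 ± 0.13 (limma adjusted p = 0.234). Without pools 6 and 7 in turn, limma called 231 and 113 of 22518 probe sets, against 36 with all pools. These smaller fits had a single residual degree of freedom.

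Of 24 other transcription factors of EMT, 23 were tested and 17 were lower in superior, with 0 called by limma and 3 passing unadjusted, all lower. The T-box repressors of chamber muscle Tbx3 and Tbx2 had the largest differences, -0.61 ± 0.15 and -0.35 ± 0.13. Of 14 cadherins and mesenchymal markers, 6 were lower and 8 higher with 0 called by limma, while 1 passed unadjusted in each direction. The PDGF receptor gene Pdgfra of mesenchyme differed by -0.28 ± 0.10 and S100a4, a calcium-binding protein of fibroblasts, by 0.32 ± 0.20. The endothelial cadherin gene Cdh5, Cdh2 of mesenchyme and heart muscle, and the mesenchymal Cdh11 had differences of 0.026 ± 0.093, -0.0019 ± 0.094 and -0.032 ± 0.087.

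Genes acting on the same products as Has2 and Papss2 had list medians of 0.020 for hyaluronan and -0.012 for sulfation. Of 14 genes of hyaluronan making and breakdown 9 were tested, of which 4 were lower and 5 higher, with 0 called by limma and 1 passing unadjusted as higher. That gene was the hyaluronan receptor Hmmr, also a spindle protein of dividing cells, at 0.40 ± 0.10 (limma adjusted p = 0.261), and the hyaluronan-degrading Cemip gave 0.39 ± 0.22. Ugdh, which makes a hyaluronan precursor, had level signals of 1149 ± 20.6 in superior and 1133 ± 34.1 in inferior pools. Of 24 genes of sulfation and chondroitin sulfate synthesis 16 were tested, of which 9 were lower and 7 higher, with 0 called by limma and 1 passing unadjusted as lower. Papss1, the other PAPS synthase, had signals of 500.2, 560.5 and 517.2 in superior pools 1, 6 and 7, against 498.9, 604.1 and 489.7 in inferior pools 1, 6 and 7, and a log2 difference of -0.0085 ± 0.088, beside the -0.64 ± 0.11 of Papss2, a contrast between the genes that was not itself tested. The largest differences of that list were -0.29 ± 0.16 for the sulfotransferase Chst15 and 0.29 ± 0.15 for Bpnt1, a phosphatase that clears the by-product of sulfation.

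Of 7 proteases that cut versican, 3 were lower and 4 higher, with 0 called by limma and 0 passing unadjusted. Adamts4 had the largest difference, -0.37 ± 0.21, and Adamts5 gave 0.34 ± 0.15. Of 22 other matrix genes, 13 were lower and 9 higher, and limma called 1, beside 0.160% of all tested probe sets. At an unadjusted threshold 2 passed as lower and 3 as higher. The called gene was Dcn, the proteoglycan decorin, with signals of 213.3, 271.9 and 89.1 in superior pools 1, 6 and 7, against 71.2, 81.6 and 19.2 in inferior pools 1, 6 and 7. It rose by 1.76 ± 0.14 in superior (limma adjusted p = 0.00723), the opposite direction to most member genes, but it was not called without the pool number in the fit, when dim probe sets were kept (limma adjusted p = 0.0610) or without trend and robust variance (limma adjusted p = 0.0948). Tenascin C (Tnc), which surrounds migrating mesenchyme, averaged 1488 ± 210.4 in superior against 1950 ± 52.7 in inferior pools (SD, n = 3 each) and a difference of -0.40 ± 0.10 (limma adjusted p = 0.255). Tnc passed without pool 6, at -0.48 (limma adjusted p = 0.0257), a fit that called 231 of 22518 probe sets.

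**Figure D2:**
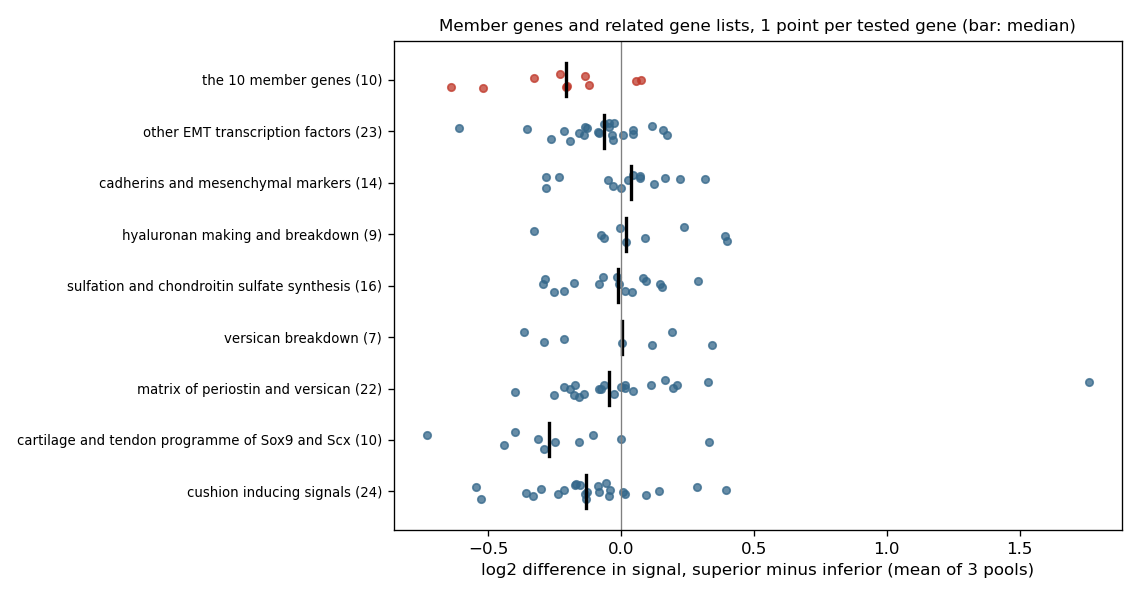
Log2 difference in signal, superior minus inferior, mean of 3 pools, with 1 point for the brightest tested probe set of each gene (number of tested genes in brackets) and a bar at each list's median. The member genes, in red, have their median at -0.21, between the cartilage and tendon list at -0.27 and the cushion inducing signals at -0.13. The isolated point at 1.76 is Dcn.

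The gene profiles most like that of Papss2, the member with the largest difference by its brightest probe set, were found by the root mean square distance between centred log2 values over the 6 arrays, among 11194 genes. They were Tmem26, a membrane protein gene, at 0.16, Col14a1, a fibril-associated collagen of tendon and skin, at 0.18, and Col9a3 at 0.19. Tmem26 had signals of 80.9, 119.2 and 75.8 in superior pools 1, 6 and 7, against 150.4, 196.8 and 85.8 in inferior pools 1, 6 and 7, the pattern of Papss2 with its high pool 6 and small gap in pool 7. Col14a1 differed from that pattern in pool 7, where superior was slightly higher. Both genes were picked for their likeness over these arrays, so their differences are a description with no test. With 6 arrays and this many genes some close profiles always occur.

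Markers of other cell types were read beside these differences. Summed over 7 measured neural crest markers, signals were 480.1 to 724.4 in superior and 669.2 to 944.4 in inferior pools, with superior over inferior ratios of 0.68, 0.77 and 0.72 in pools 1, 6 and 7. This sum moved in the same direction as most member genes, with 4 of 5 tested markers lower. The exception was the dim crest gene Sox10, which was higher in superior in all 3 pools, at 0.31 ± 0.21. Erbb3, which is also a gene of the cushion list, made up most of the sum, and the crest genes Foxd3 and Tfap2b never exceeded background. Markers of the second heart field and pharyngeal mesoderm summed to 827.7 to 1138 in superior and 943.5 to 1569 in inferior pools (ratios 0.79, 0.88 and 0.73), with 4 of 5 tested markers lower and Hoxb1 and Lhx2 at or below background. Isl1, a transcription factor of second heart field progenitors, made up most of this sum in every array. The dim growth factor gene Fgf8 had the largest difference of these markers, -1.03 ± 0.17 (limma adjusted p = 0.0932), with signals of 17.9, 11.5 and 25.6 in superior pools 1, 6 and 7, against 44.3, 23.4 and 57.2 in inferior pools 1, 6 and 7. In pool 7 Tbx1 read 27.3 in superior against 71.1 in inferior, and Six2 read 35.9 in superior against 71.7 in inferior, wider gaps than in pools 1 and 6. Eya1, the tested marker with a higher mean in superior, was higher there in pools 1 and 6 and lower in pool 7, at 0.15 ± 0.32.

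In the other direction, 8 epicardial markers summed to 1068 to 1839 in superior and 666.4 to 910.2 in inferior pools, with ratios of 2.18, 2.02 and 1.60, and Msln was at or below background. Of 7 tested epicardial markers 7 were higher on average and 4 were called by limma (Tbx18, Tcf21, Upk1b and Aldh1a2), beside 0.160% of all tested probe sets. Without the pool number in the fit limma called 0 of the 7 and 6 passed unadjusted, and without trend and robust variance it called 0 probe sets of the whole array. The 8 heart muscle markers, all above background in every array, summed to 31758 to 39074 in superior and 28777 to 29215 in inferior pools (ratios 1.10, 1.34 and 1.17). Nppa, far dimmer than the rest, hardly entered this sum but had the largest difference of these markers, 2.24 ± 0.30 (limma adjusted p = 0.0622). All its superior signals lay above all its inferior signals. The other heart muscle markers were higher in superior by 0.18 to 0.33 on average. The size of this gap depended on the settings. The median difference of the 8 heart muscle markers was 0.27. It ranged from 0.060 to 0.31 when the block, offset, filter, scaling or variance model was changed, staying above 0. The 8 endocardial and endothelial markers had nearly level sums (ratios 1.00, 1.17 and 0.97), with 6 markers higher and 2 lower on average. Among them Emcn was higher in superior pools 1 and 6 and level in pool 7, at 0.56 ± 0.17 (limma adjusted p = 0.345). Kdr was lower in all 3 pools, at -0.22 ± 0.10. The 8 markers of pharyngeal epithelium gave ratios of 1.16, 1.21 and 0.94, in sums made up mostly of the keratins Krt8 and Krt18. The dim epithelial adhesion genes ran differently in pool 7, where Epcam read 21.2 in superior against 67.0 in inferior and Cdh1 read 15.4 in superior against 46.7 in inferior, and the median log2 difference of the 4 tested markers was -0.74 in that pool, beside 0.23 and 0.59 in pools 1 and 6. The 7 blood markers gave ratios of 1.11, 1.44 and 0.99. The part of tissue makeup in the differences of the member genes was not tested.

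**Figure D3:**
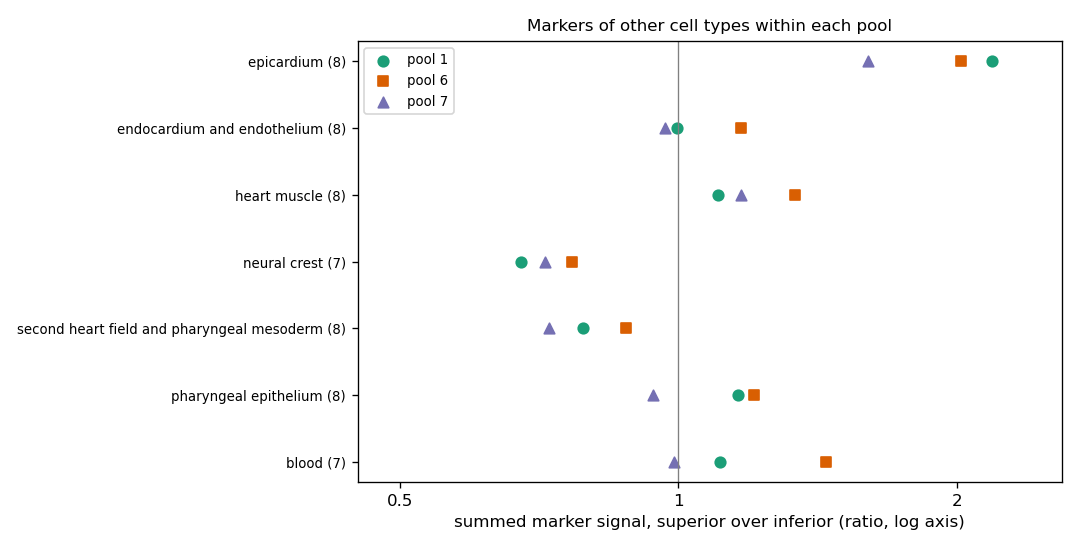
Summed signal of marker genes of 7 other cell types, superior over inferior, within pools 1, 6 and 7 (log axis; number of measured markers in brackets). Neural crest and second heart field sums lie below 1 in all 3 pools, epicardial and heart muscle sums above 1 in all 3.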

How the data were processed

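The deposited table holds linear intensity signals of 6 arrays. The submitters' processing notes name MAS5 as the authors' tool, and its version and scaling target are not given in the sources used here. The mean of each array, trimmed at both ends, was about 100 in the deposited values. Precision is limited by the number of arrays, which carry no depth. Of 45101 probe sets, 64 controls were left out. Names came from the platform annotation (34945 probe sets with 1 gene, 932 with several, 9160 not named here), checked by gene ID against RefSeq (GRCm38.p6), which changed 0 symbols.

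Signals became log2(signal + 3.2), 3.2 being the 25th percentile. Probe sets above the median mean log2 value were tested (22518, 11195 genes) with limma 3.58.1 in R 4.3.3 (lmFit, eBayes with trend and robust variance), region plus pool number as a block, Benjamini-Hochberg adjusted, threshold 0.05. The design text says that both regions came from littermates, without saying that a number marks 1 litter. Deviations from region means correlated at 0.79, 0.43 and 0.51 for same-numbered arrays (limit 0.1), and at 0.18 and 0.20 for superior 6 with inferior 7 and superior 7 with inferior 6, so the pairing is likely but not settled. The fit has 2 residual degrees of freedom. On simulated data it recovered the mean size of changes and called most of the largest ones, but none in the size range of the members' differences. The simulated noise was drawn around 1 common level that included the real region differences. The simulation therefore does not show which sizes the fit could call here. In the real data limma called Tcf21 at 0.69 (limma adjusted p = 0.0479).

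The members and lists were chosen with earlier results of these data known. Named beside the members were, per list, called genes and the 2 genes with the largest difference, and the 3 profiles nearest to Papss2. Genes named outside this rule (Col9a1, Comp, Tnmd, Mkx, Cdh5, Cdh2, Cdh11, Ugdh, Papss1 and the cell type markers named) were chosen after their values were seen. Alternatives changed the block, offset, filter, scaling, variance model and arrays.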

Additional observations from a re-analysis of the deposited data

How the results depend on the processing

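The count of called probe sets over the whole array depended on the settings. It was 36 with the pool number as a block and 0 with no replicate block, 22 when 1 was the offset, 1 when dim probe sets were kept, 2 among the top 25% by signal and 0 without trend and robust variance. Leaving out pools or arrays gave 0 to 231. Member calls were 0 under all of these settings except without pool 1 (Snai2) and without pool 7 (Papss2), a range of 0 to 1. Of 22 tested member probe sets, 20 were lower in superior (leaving out the block cannot move a mean difference in this balanced design), 22 under quantile and cyclic loess normalization, 19 under 75th percentile scaling, 11 of 13 tested among the top 25%, 25 of 30 with dim probe sets kept, and 16 to 22 when a pool or array was left out. The sign of the brightest Vcan probe set turned to -0.12 under quantile and -0.070 under cyclic loess normalization, and that of Postn to -0.11 and -0.052, while Vcan 1421694_a_at turned to 0.0062 under 75th percentile scaling. With a pool or array left out, differences ranged from -0.28 to 0.024 for Snai2 1447643_x_at, -0.75 to 0.057 for Sox9 1424950_at, -0.071 to 0.16 for Vcan 1427256_at, -0.19 to 0.12 for Vcan 1421694_a_at, -0.59 to 0.17 for Vcan 1427257_at and -0.15 to 0.25 for Postn. They ranged from -0.36 to 0.035 for Prrx1 1425526_a_at, -0.41 to 0.074 for Scx, -1.19 to 0.61 for Papss2 1421989_s_at, -0.16 to 0.61 for S100a4 and -0.82 to 0.026 for Col14a1. The brightest probe sets of Papss2, Sox9, Snai1 and Has2 stayed below 0 in every setting that tested them, with ranges without a pool or array of -0.97 to -0.29, -0.51 to -0.13, -0.72 to -0.36 and -0.35 to -0.072. Their differences were negative in every pool. Leaving out a pool or the block, or changing the offset, filter or variance model, therefore could not turn their sign. The cause of the shifts between settings was not tested. The members' median lay between -0.39 and -0.088. Dim probe sets such as those of Scx limit what can be seen, since MAS5 takes a mismatch signal off.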
